A study of Mus musculus with 36 samples.

Results

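The fibrillar collagens described here were the 5 genes Col1a1, Col1a2, Col3a1, Col5a1 and Col5a2, which encode chains of collagens I, III and V. They were taken by symbol from UMI tables of the mouse left ventricle, and all 5 were found among the 20720 nuclear genes that the tables list. Single ventricular cells were sorted into 384-well plates and read by SORT-seq, which reads mRNA from its 3′ end and counts molecules by unique molecular identifiers (UMIs), random tags of 6 bases. One molecule gives at most 1 UMI whatever its length, so levels were compared between genes without a length correction, although equal capture of the 5 mRNAs was not tested.

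All hearts came from mice labelled male, C57BL/6 and 8 weeks of age (C57BL/6 J in the study's methods for MI), and no group is labelled as carrying a transgene. Sham operated hearts were collected at day 1 (4 plates) and at day 14 (8 plates). Ischemia-reperfusion (IR), a 1-hour ligation of the left anterior descending artery, gave 9 plates at day 1, 7 at day 3 and 3 at day 14. Myocardial infarction (MI), a permanent ligation of that artery, was sampled at day 3 (5 plates). Sham hearts of day 3 are not among the groups, and day 3 was therefore set against both sham groups together. The MI plates carry a treatment label of their own. They also differed from the other groups in mitochondrial share and in the depth of fibroblast-like cells, both given below. Permanent ligation cannot be told apart from that label or from these differences. The study's methods give fewer mice than plates for MI, and no number of mice for the IR groups. The mouse behind each plate is not stated and plates may share a mouse, so every p-value below measures the spread between plates.

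Across the 36 plates, totals ran from 176614 to 5551870 UMIs, and 3146 wells held at least 1000 UMIs of nuclear genes and were kept as cells. Of these, 297 fell into 2 clusters that were called fibroblast-like from markers that include no collagen. All 10 fibroblast markers were higher in these cells than in the other wells, for example Dcn (3387 against 162 UMIs per 1000000, CPM) and Pdgfra (398 against 16.8 CPM). The clusters were named from these markers, so this describes them and is no separate support for the name. By the naming rule, 7 of the 10 counted as higher in the cluster of 212 cells and 10 in that of 85 cells. Of 97 wells of sham day 14 replicate 2 with at least 500 UMIs, 35 matched the well of the same number on replicate 7, and of 77 such wells of replicate 7, 43 matched replicate 2. These replicates were therefore counted as 1 plate, and summed values leave replicate 2 out, which leaves 295 fibroblast-like cells. Sham day 14 replicate 2 also shared 16 wells with IR day 3 replicate 6, a plate of another group, and IR day 1 replicate 9 shared 17 wells with replicate 5 and 7 with replicate 8. Leaving out all of these copied wells changed no call for the 5 genes.

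Fibrillar collagens are triple helices that are secreted as procollagens, trimmed at their ends and packed into banded fibrils that carry tension. Type I collagen combines alpha1 chains (Col1a1) with a single alpha2 chain (Col1a2) in each helix, type III is made of Col3a1 alone, and type V chains (Col5a1, Col5a2) co-assemble with type I and limit fibril width. In the heart these chains are known as products of fibroblasts, and scar tissue that replaces dead muscle is rich in types I and III.

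On GRCm38, Col1a1 lies at chr11:94936224-94953042 on the plus strand with 51 exons. Col1a2 lies at chr6:4504814-4541544 (plus strand, 52 exons) and Col5a1 at chr2:27886425-28039514 (plus strand, 66 exons). Col3a1 (chr1:45311538-45349706, plus strand, 51 exons) and Col5a2 (chr1:45374321-45503282, minus strand, 54 exons) are neighbours that face each other with their 3′ ends. Small annotated genes lie inside Col1a2 (Gm43921), Col3a1 (Gm47302), Col5a1 (Gm13372, on the opposite strand) and Col5a2 (Gm38211), 2810430I11Rik overlaps the start of Col5a1 on the opposite strand, and reads shared with them were not separated.

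Because all 5 chains were higher at day 3 than at day 1 of reperfusion, their promoters are shown where RefSeq sequence was given, which was the case for 3 of the 5 genes. The windows hold the bases before the RefSeq start on GRCm38.p6, 5′ to 3′, without bases that lie in an annotated exon. Capitals mark matches on either strand to CCAAT or to GGGCGG or to the TATA box letters TATAA, short motifs of many promoters. The windows are chr6:4505370-4505492 for Col1a2, chr1:45311288-45311537 for Col3a1 and chr2:27886175-27886424 for Col5a1, all on the plus strand. The RefSeq start of Col1a2 lies downstream of the annotated gene start given above, so its window is inside the annotated gene.
Col1a2: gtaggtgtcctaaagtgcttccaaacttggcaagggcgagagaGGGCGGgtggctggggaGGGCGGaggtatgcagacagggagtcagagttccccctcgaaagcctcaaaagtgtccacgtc
Col3a1: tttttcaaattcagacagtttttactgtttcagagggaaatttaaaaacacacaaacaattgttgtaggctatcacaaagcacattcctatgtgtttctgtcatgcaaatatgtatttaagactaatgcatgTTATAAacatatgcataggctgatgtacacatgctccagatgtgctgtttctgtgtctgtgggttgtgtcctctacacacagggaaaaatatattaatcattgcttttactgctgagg
Col5a1: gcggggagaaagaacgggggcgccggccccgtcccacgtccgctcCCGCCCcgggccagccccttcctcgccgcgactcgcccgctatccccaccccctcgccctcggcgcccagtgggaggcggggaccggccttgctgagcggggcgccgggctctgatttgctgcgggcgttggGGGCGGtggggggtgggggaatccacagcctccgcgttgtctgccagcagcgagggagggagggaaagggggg

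The 3 windows had little sequence character in common. Over the full 250 bases before the start, GC content was 62% for Col1a2, 35.2% for Col3a1 and 76.4% for Col5a1. GGGCGG began 205 and 188 bases before the start of Col1a2 and 73 bases before that of Col5a1, with a match on the other strand of Col5a1 at 205 bases. TATAA began 117 bases before the start of Col3a1, overlapping its own match on the other strand at 118 bases. CCAAT was found only before Col1a2, at 109 bases, in a stretch that is not printed because an annotated exon covers it. Of 32851 promoters of the same length, 32.7% held GGGCGG, 22.8% TATAA and 33.8% CCAAT, so these matches are common and are given as a description.

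Fibroblast-like cells held most UMIs of the 5 chains in every group. The share was 84% and 90.9% at days 1 and 14 after sham surgery, 89.7%, 84.4% and 75.4% at days 1, 3 and 14 of reperfusion, and 92.7% after MI, while these cells were 3.57% to 18.3% of the wells. They held 40.8% of the UMIs of all genes in MI day 3, 26.3% in IR day 1 and 6.88% to 11.3% in the other groups. Levels in fibroblast-like cells, pooled over each group, ran from 1902 CPM (95% Poisson interval 1676 to 2150) in sham day 1 to 18057 CPM (17686 to 18433) in IR day 3 for Col1a1. The same pair of groups gave 4139 (3802 to 4498) and 23178 CPM (22757 to 23604) for Col1a2. Col3a1 went from 5365 CPM (4981 to 5771) in sham day 1 to 26925 CPM (26471 to 27384) in IR day 3, where it ranked 2 among all nuclear genes of the pool, ahead of Col1a2 at rank 3 and Col1a1 at rank 4. The type V chains were lower, with Col5a1 at 582 to 1837 CPM and Col5a2 at 461 to 2006 CPM over the 6 groups. Intervals and detection limits cover counting error only.

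The larger of the other classes held lower levels of Col1a2, which differed between groups. Col1a2 stood at 44.5 CPM in cardiomyocyte-like cells of sham day 1, at 877 CPM in those of IR day 3 and at 337 CPM in MI day 3. In endothelial-like cells it was 35.8, 434 and 337 CPM in the same order, and in macrophage-like cells 13.5, 311 and 329 CPM. Neutrophil-like cells, which are not known to make fibrillar collagen, held 125 CPM of Col1a2 in IR day 1 and 940 CPM in MI day 3, where 91.9% of these cells had a UMI at a median depth of 2750 UMIs. Thinned to 1000 UMIs per cell, 67.1% of neutrophil-like, 32.5% of macrophage-like and 33.1% of endothelial-like cells of MI day 3 would have carried a Col1a2 UMI, against 98.6% of fibroblast-like cells at an unthinned median of 45196 UMIs. For Col1a2 the macrophage-like and endothelial-like shares were below the neutrophil share, and no expression is read from them. Col5a2 was higher in endothelial-like than in neutrophil-like cells of MI day 3 (143 against 84.3 CPM, and 12.8% against 8.71% of cells after thinning). The 200 wells of MI day 3 in unnamed clusters held 1942 CPM of Col1a2 at a median depth of 1539 UMIs. Mural-like cells were few (15 in all, 844 CPM of Col1a2), and the 2 of IR day 1 held 13225 CPM of Col3a1, above the fibroblast-like pool of that group (4556 CPM).

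The ratio between chains was not the same in all classes of MI day 3. Col5a2 exceeded Col5a1 in endothelial-like cells (168 and 77 UMIs, ratio 2.18, 95% interval 1.66 to 2.9) on 5 of 5 plates. In macrophage-like cells Col5a2 was below Col5a1 (205 and 330 UMIs, ratio 0.621, 0.519 to 0.742) on 5 of 5 plates, as in neutrophil-like cells (25 and 33 UMIs, ratio 0.758, 0.432 to 1.31). In macrophage-like cells of IR day 3 the pooled ratio was 1.19 (68 and 57 UMIs, 0.827 to 1.73), with Col5a2 above Col5a1 on 1 plate and below it on 3. In fibroblast-like cells of MI the ratio was 1.15 (1.11 to 1.18). Col3a1 to Col1a1 was 1.21 in fibroblast-like cells but 2.83 in endothelial-like, 2.65 in macrophage-like and 2.87 in neutrophil-like cells. Col1a1 to Col1a2 was 0.835 in fibroblast-like cells, against 0.485, 0.557 and 0.477 in those 3 classes. These pooled ratios were not tested between classes, and the part of free RNA in them was not tested.

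Plates with at least 5 fibroblast-like cells were compared with one another, which kept 3 and 1 plates of days 1 and 14 for sham, 5, 4 and 2 plates of days 1, 3 and 14 for IR, and 5 plates for MI. Col1a1, the alpha1 chain of type I, stood at 1014, 2246 and 1818 CPM on the sham day 1 plates and at 3194 CPM on the sham day 14 plate. The IR day 1 plates read 4333, 701, 973, 619 and 677 CPM, so 4 of the 5 were below every sham plate and replicate 3 was above them all. The IR day 3 plates read 11824, 18972, 19289 and 18637 CPM, the IR day 14 plates 4874 and 6051 CPM, and the MI day 3 plates 8689, 9145, 7962, 8706 and 8117 CPM. Each IR day 3 plate was above each MI plate, and each MI plate was above each sham, IR day 1 and IR day 14 plate.

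Col1a2, the alpha2 chain, was above Col1a1 on all but 3 of the 20 plates. It read 2376, 5205 and 3417 CPM in sham day 1 and 7523 CPM in sham day 14. The IR plates read 5759, 322, 1111, 1199 and 575 CPM at day 1, 20087, 22092, 18543 and 30336 CPM at day 3, and 8411 and 8786 CPM at day 14. The MI plates read 10831, 10535, 9007, 11390 and 9625 CPM. The IR day 3 plates did not overlap any other group, and 4 of the 5 IR day 1 plates were below every sham plate.

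Col3a1, the sole chain of type III, ranged widely among sham plates. It read 1394, 8209 and 3163 CPM in sham day 1 and 10090 CPM in sham day 14. The values were 6527, 601, 1546, 2664 and 1861 CPM at day 1 of reperfusion, 25704, 26933, 19836 and 31011 CPM at day 3, 7389 and 13399 CPM at day 14, and 10774, 9886, 9407, 11687 and 10028 CPM after MI. The sham day 14 plate lay inside the range of the MI plates for this chain, and the IR day 3 plates lay above all others.

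The type V chains moved over a narrower range. Col5a1 read 285, 744 and 364 CPM in sham day 1 and 882 CPM in sham day 14. After reperfusion it read 982, 311, 421, 235 and 417 CPM at day 1, 1180, 1999, 1839 and 1755 CPM at day 3, and 629 and 1297 CPM at day 14. The MI plates read 1200, 1188, 1256, 1318 and 1106 CPM for it, and the IR day 3 range held all but 1 of them. The other type V chain, Col5a2, which pairs with Col5a1 in the commonest form of collagen V, was also low. It read 63.3, 610 and 436 CPM in sham day 1 and 666 CPM in sham day 14. Reperfused plates read 932, 278, 668, 831 and 778 CPM at day 1, 1547, 2031, 1342 and 2430 CPM at day 3, and 1048 and 914 CPM at day 14. After MI it read 1596, 1367, 1314, 1365 and 1255 CPM. For Col5a2, 4 of the 5 IR day 1 plates were above every sham plate, which was not so for the other 4 chains.

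All 5 chains rose from day 1 to day 3 of reperfusion in the edgeR quasi-likelihood test with Benjamini-Hochberg adjustment. Col1a1 rose 12.3-fold (log2 difference 3.62, SE 0.48, adjusted p = 1.76e-05), Col1a2 13.3-fold (3.74, SE 0.56, adjusted p = 6.77e-05) and Col3a1 10.3-fold (3.37, SE 0.54, adjusted p = 0.000124). Col5a1 rose 3.78-fold (1.92, SE 0.38, adjusted p = 0.000999) and Col5a2 2.83-fold (1.50, SE 0.38, adjusted p = 0.00628). Of the 5934 genes tested in fibroblast-like cells, 11.5% were higher in IR day 3 than in IR day 1. The median log2 difference was 3.37 for the 5 chains and 0.03 for all genes. With the replicate number as a block, Col5a2 missed the threshold at a similar difference (1.60, adjusted p = 0.0505). The call held within the Timp1-led cluster alone for all 5 chains (log2 differences 1.80 to 4.04, adjusted p from 2.55e-05 to 0.00042). Within the Pi16-led cluster alone, where 1 plate of each group had at least 3 cells, the differences were 1.92 to 3.46 and 0 of 5 passed (adjusted p from 0.081 to 0.362). With plates of at least 10 cells, IR day 1 was replicate 3 alone. Among the IR day 1 plates with at least 5 fibroblast-like cells it had the highest type I levels. In that fit Col1a1 (log2 difference 1.94), Col5a1 (0.78) and Col5a2 (1.12) lost the call. A lone plate is assumed in these fits to vary as the other groups do.

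Against sham at day 3 of reperfusion, Col1a1 and Col5a2 passed. Col1a1 rose 8.37-fold (log2 difference 3.06, SE 0.62, adjusted p = 0.0118) and Col5a2 4.15-fold (2.05, SE 0.49, adjusted p = 0.0265). Col1a2 (log2 difference 2.31, adjusted p = 0.0805), Col3a1 (2.14, 0.0895) and Col5a1 (1.55, 0.0882) did not. Here 1.21% of all genes tested were higher, and the median log2 difference was 2.14 for the chains and 0.35 for all genes. The number of chains that passed varied with the control and the method, as 5 of 5 passed against sham day 1 alone, 0 of 5 against the single sham day 14 plate (Col1a1 2.62, adjusted p = 0.395), and 5 of 5 with DESeq2 or with no filter on low counts. Without sham day 1 replicate 3, Col3a1 (adjusted p = 0.0224) and Col5a1 (0.0278) passed too, and Col5a1 also passed without IR day 3 replicate 3 (0.0484). Col5a2 missed the threshold without sham day 1 replicate 4 (log2 difference 2.04, adjusted p = 0.0506), IR day 3 replicate 4 (1.98, 0.0551) or IR day 3 replicate 7 (1.83, 0.0726). All sham cells but not all IR day 3 cells belonged to the Pi16-led cluster described below. Within that cluster, with 1 IR day 3 plate, Col1a1 (2.17, adjusted p = 0.0505) and Col5a2 (1.77, 0.377) did not pass.

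Permanent ligation at day 3 against the same sham plates gave the same pair of calls. Mitochondrial genes, which are left out of the levels, made up 13.3% to 28.6% of the UMIs without spike-ins on the MI plates, and 33% to 85.9% on the plates of the other groups, and the part of this difference in the results for MI was not tested. Col1a1 rose 4-fold (log2 difference 2.00, SE 0.56, adjusted p = 0.015) and Col5a2 2.93-fold (1.55, SE 0.46, adjusted p = 0.0207), beside 11.8% of all genes that were higher. Col1a2 (1.09, adjusted p = 0.22), Col3a1 (0.75, 0.388) and Col5a1 (1.01, 0.108) did not pass. Col5a1 passed without sham day 1 replicate 3 (1.40, adjusted p = 0.0317) and against sham day 1 alone (1.42, 0.0308). The median log2 difference was 1.09 for the chains and 0.39 for all genes, and scaling by RLE in place of TMM lowered the latter by 0.26. Against the single sham day 14 plate, Col1a1 (1.55, adjusted p = 0.315) and Col5a2 (1.18, 0.367) no longer passed.

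The direct comparison of MI day 3 with IR day 3 gave log2 differences of -1.07 (SE 0.45) for Col1a1, -1.22 (SE 0.52) for Col1a2, -1.39 (SE 0.51) for Col3a1, -0.55 (SE 0.36) for Col5a1 and -0.50 (SE 0.37) for Col5a2. None passed in edgeR after adjustment (adjusted p from 0.086 to 0.449), 3 had an unadjusted p under 0.05, and DESeq2 called 1, Col3a1. Of all genes 5.27% were lower and 3.2% higher in MI, and the median of all genes was 0.03. With plates of at least 10 fibroblast-like cells, which left IR day 3 replicates 3, 4 and 7, Col1a1 (-0.93, adjusted p = 0.0305), Col1a2 (-1.19, 0.00709) and Col3a1 (-1.38, 0.00176) were lower in MI.

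At day 1 of reperfusion against sham day 1, none of the 5 chains passed. The log2 differences were -0.11 (SE 0.51) for Col1a1, -0.92 (SE 0.57) for Col1a2, -0.65 (SE 0.55) for Col3a1, 0.04 (SE 0.45) for Col5a1 and 0.92 (SE 0.47) for Col5a2 (edgeR, adjusted p from 0.17 to 0.969). No chain had an unadjusted p under 0.05 and DESeq2 called 0, beside 12% of all genes that were higher, 8.14% that were lower and an all-gene median of 0.22. The result turned on IR day 1 replicate 3, the plate with the most fibroblast-like cells (13). Without it Col1a1 (-1.16, adjusted p = 0.0165), Col1a2 (-2.14, 0.00077) and Col3a1 (-1.37, 0.0499) were lower than in sham. Without sham day 1 replicate 3, Col5a2 was higher (1.78, adjusted p = 0.0427) and Col1a1 (0.32) and Col3a1 (0.49) changed sign. The IR day 1 plates with under 5 cells also spread widely, from 1913 CPM of the 5 chains together on replicate 4 (3 cells) to 20694 CPM on replicate 1 (4 cells) and 29570 CPM on replicate 2 (2 cells).

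At day 14 of reperfusion no chain was called against either day 3 or sham. Against IR day 3 the log2 differences were -1.71 (SE 0.64), -1.50 (SE 0.73), -1.36 (SE 0.70), -0.82 (SE 0.50) and -1.03 (SE 0.52) in the order Col1a1, Col1a2, Col3a1, Col5a1 and Col5a2, and none passed in edgeR (adjusted p from 0.158 to 0.414). Without IR day 14 replicate 1 Col3a1 read -0.91 and Col5a1 -0.34, and without replicate 3 they read -2.07 and -1.69. Of these, 2 had an unadjusted p under 0.05 and DESeq2 called 0, with 0.624% of all genes lower and 0.674% higher. Against the single sham day 14 plate the differences were 0.20 to 0.90 (SE 0.72 to 0.97), with 0 chains called by edgeR or DESeq2, 0 at an unadjusted p under 0.05, and 0% of all genes called higher. These differences rest on 2 IR day 14 plates and 1 sham plate, and Col3a1 (-0.50) and Col5a1 (-0.54) changed sign without IR day 14 replicate 3.

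**Figure D1:**
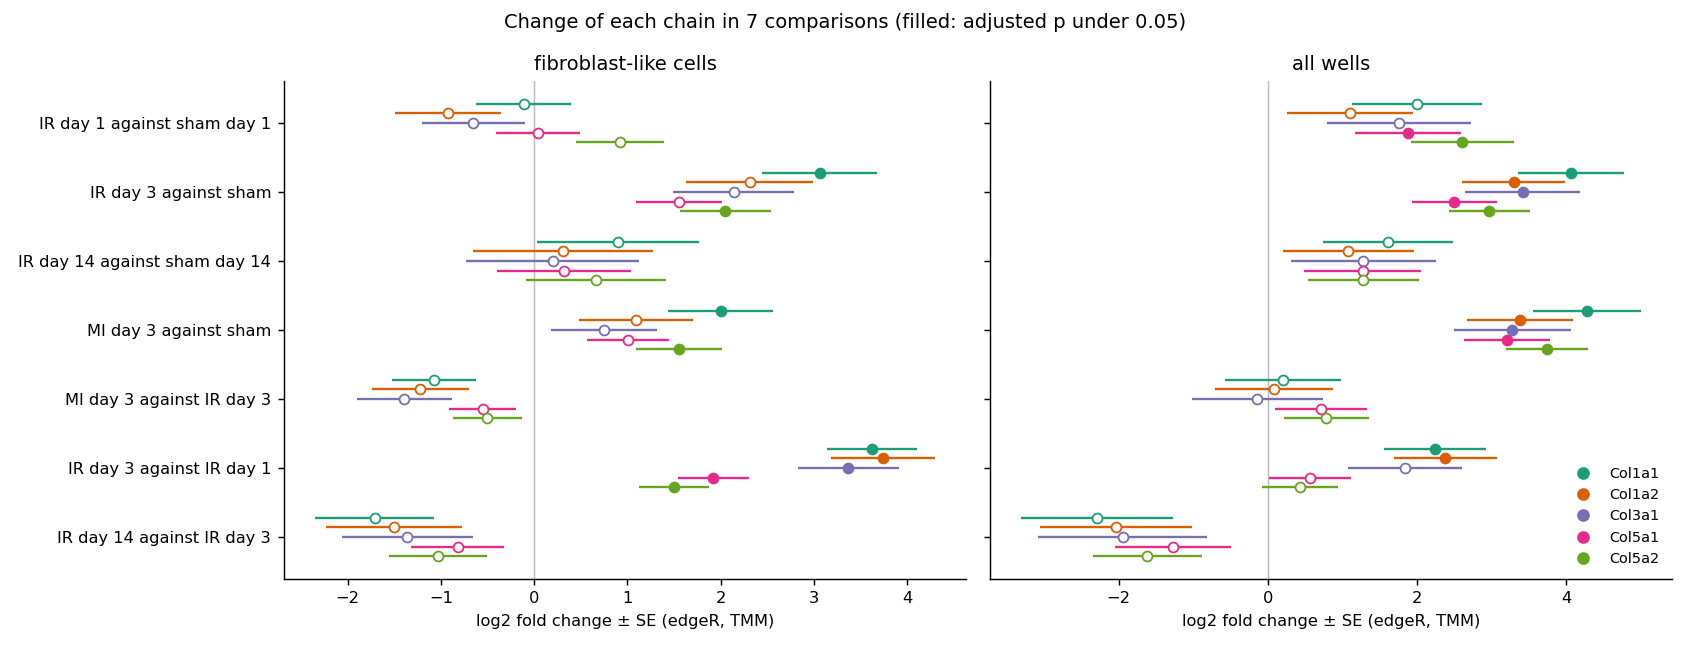
Log2 difference of each chain in each comparison, with its standard error, in fibroblast-like cells and in all wells of a plate. Filled points passed an adjusted p of 0.05 in edgeR. All 5 chains passed for IR day 3 against IR day 1 in fibroblast-like cells, and all 5 for day 3 against sham in all wells.

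The balance between chains was measured as a log2 ratio of UMIs per plate with 0.5 UMIs added. Col1a1 had fewer UMIs than Col1a2 on 3 of 3 sham day 1 plates (0.43, 0.432 and 0.534) and on the sham day 14 plate (0.425). The ratio was 0.589, 0.859, 1.04 and 0.614 on the IR day 3 plates, 0.58 and 0.689 on the IR day 14 plates, and 0.802, 0.868, 0.884, 0.764 and 0.843 on the MI plates. IR day 1 spanned 0.518 to 2.15. The MI plates and the IR day 3 plates did not overlap the sham plates. The geometric mean went from 0.453 in sham to 0.831 in MI (exact permutation p = 0.00794, adjusted p = 0.0635) and to 0.754 in IR day 3 (exact permutation p = 0.0286, adjusted p = 0.114).

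Col3a1 exceeded Col1a1 on every sham plate, with ratios of 1.37, 3.65, 1.73 and 3.15. The MI plates read 1.24, 1.08, 1.18, 1.34 and 1.24, all below the lowest sham plate (means 1.21 and 2.29, exact permutation p = 0.00794, adjusted p = 0.0635). IR day 3 read 2.17, 1.42, 1.03 and 1.66 and overlapped sham (exact permutation p = 0.2, adjusted p = 0.369). Col5a2 to Col5a1 had means of 0.665, 1.54, 1.08 and 1.13 in sham, IR day 1, IR day 3 and MI, with overlapping plates and adjusted p from 0.119 to 0.805 among the comparisons of these groups other than IR day 14.

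The type V chains together, relative to the type I chains together, gave the widest separation. Their ratio was 0.107, 0.182 and 0.156 in sham day 1 and 0.145 in sham day 14. It was 0.19, 0.578, 0.523, 0.587 and 0.955 in IR day 1, above every sham plate (means 0.503 and 0.145, exact permutation p = 0.0357, adjusted p = 0.119). In IR day 3 it was 0.0858, 0.0982, 0.0844 and 0.0855, below every sham plate (exact permutation p = 0.0286, adjusted p = 0.114) and below every MI plate (0.143, 0.13, 0.151, 0.134 and 0.133, exact permutation p = 0.00794, adjusted p = 0.0635). The IR day 14 plates read 0.127 and 0.149, both within the range of sham, and the lower of them was below every MI plate.

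Of the 24 ratio tests, 0 passed after adjustment, 8 had an unadjusted p under 0.05 and in 8 the groups did not overlap. The tests were exact, two-sided permutation tests over plates, adjusted over all 24. The smallest p they can give is 0.00794 for 5 against 4 plates, 0.0179 for 5 against 3, 0.0286 for 4 against 4 and 0.0667 for 2 against 4, so several fully separated comparisons could not go lower. With plates of at least 3 cells, 4 of the tests passed: Col1a1 to Col1a2 and Col3a1 to Col1a1 for MI against sham, and type V to type I for MI against IR day 3 and for IR day 3 against IR day 1, each with an adjusted p of 0.0476.

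**Figure D2:**
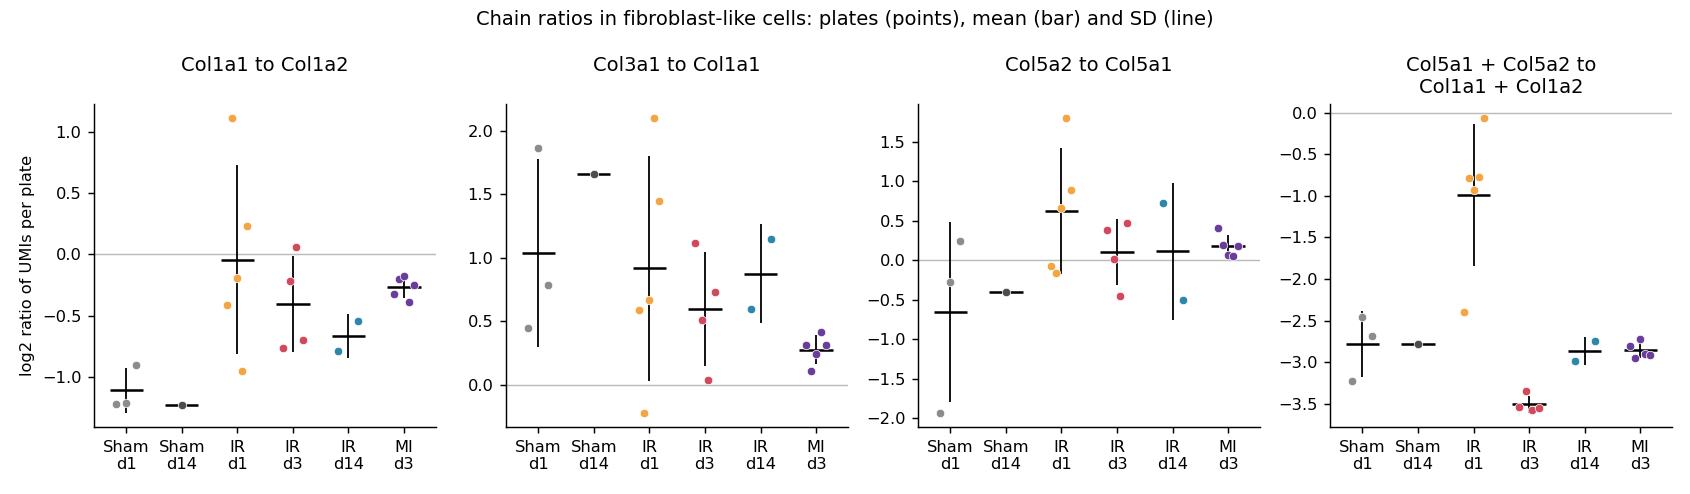
Ratio between chains in fibroblast-like cells, 1 point per plate on a log axis, with the geometric mean of each group as a line. The IR day 3 plates sit between 0.0844 and 0.0982 for type V to type I, and the IR day 1 plates between 0.19 and 0.955.

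The 2 fibroblast-like clusters were shared unequally between groups, and they are named by their leading genes. The 23 cells of sham day 1 and 13 of sham day 14 were all Pi16-led, the 17 cells of IR day 14 were all Pi16-led, and 131 of the 132 MI cells were Timp1-led. IR day 1 held 44 Timp1-led and 10 Pi16-led cells and IR day 3 held 36 and 20. Collagen genes were left out of the clustering, and 296 of 297 cells were the same when they were allowed in. Within IR day 3, Timp1-led cells had more Col1a1 (19259 against 13927 CPM) and less Col3a1 (25097 against 33205 CPM) than Pi16-led cells, so Col3a1 to Col1a1 was 1.3 and 2.38. The 2 deepest of the 20 Pi16-led cells gave 66.7% of the UMIs of that pool and 75% of its collagen UMIs. Without the 2 deepest cells of each cluster, Col3a1 was no longer lower in the Timp1-led cells (28303 against 21171 CPM), Col1a1 was 20608 against 10265 CPM, and the ratios were 1.37 and 2.06. Among Pi16-led cells alone this ratio was 2.82 and 2.89 at days 1 and 14 of sham, and 1.52, 2.38 and 2.08 at days 1, 3 and 14 of reperfusion. Among Timp1-led cells it was 2 and 1.3 at days 1 and 3 of reperfusion and 1.21 in MI. Against sham, cluster and MI cannot be told apart, since only 1 MI cell was Pi16-led and the 1 Timp1-led sham cell lay on the left-out plate, sham day 14 replicate 2. Within the Timp1-led cluster, in a run added after seeing the data, MI against IR day 3 gave log2 differences of -1.30 (SE 0.53) for Col1a1, -1.36 (SE 0.62) for Col1a2, -1.51 (SE 0.51) for Col3a1, -0.65 (SE 0.36) for Col5a1 and -0.65 (SE 0.34) for Col5a2, and none passed (edgeR, adjusted p from 0.0894 to 0.318). The log2 ratio of type V to type I was 0.73 higher in MI there (exact permutation test, adjusted p = 0.0317). That adjustment covered only the tests of this cluster, which were fewer than the main ratio tests. In the main exact permutation test of this ratio the adjusted p was 0.0635.

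Single cells varied more than plates. The 5 chains made up a median of 0.858% of a fibroblast-like cell's UMIs in sham day 1 (0.136% to 2.74% over 23 cells) and 2.12% in sham day 14 (0.385% to 3.06% over 13 cells). In IR day 1 the median was 0.457% and the range 0.0283% to 7.2% over 54 cells. In IR day 3 it was 6.29%, from 0.956% to 24.2% over 56 cells, and 12 of these cells gave over 10% of their UMIs to the 5 chains, which no cell of another group did. The medians were 1.72% (1% to 9.3%) for 17 cells of IR day 14 and 3.04% (0.217% to 9.87%) for 132 cells of MI day 3. No fibroblast-like cell lacked all 5 chains. Depth differed widely beside these values, with a median of 3312 UMIs per cell in IR day 3 and 45196 in MI day 3, and its part in the difference was not tested.

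**Figure D3:**
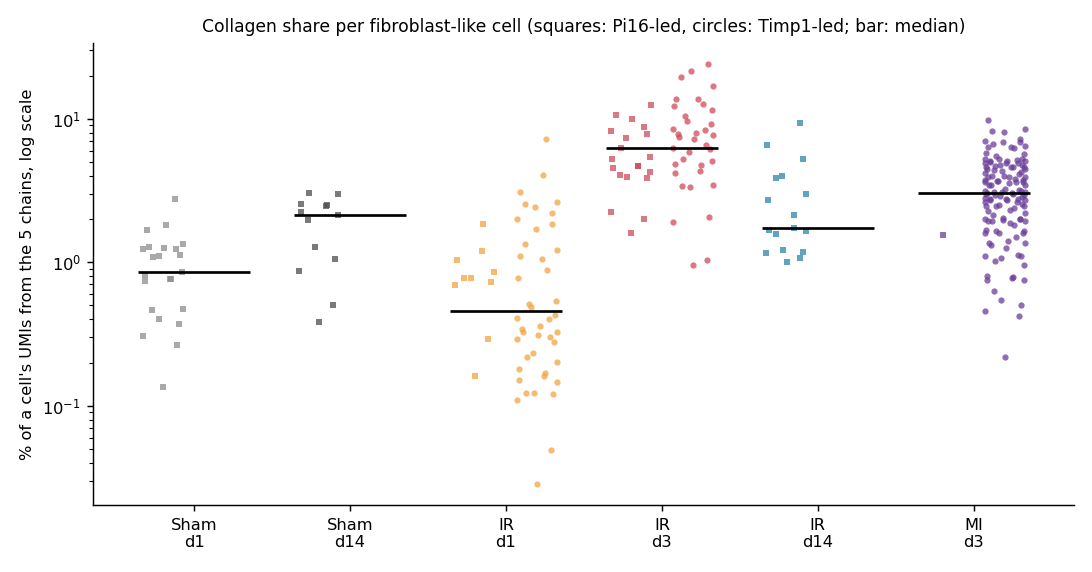
Percent of each fibroblast-like cell's UMIs that came from the 5 chains, 1 point per cell by group, on a log axis, with the median of each group as a line. The medians were 0.457%, 6.29% and 3.04% in IR day 1, IR day 3 and MI.

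Rank correlations between chains across cells were positive for nearly all pairs. In MI day 3 Spearman's rho was 0.92 for Col1a1 and Col1a2, 0.73 for Col1a1 and Col3a1, and 0.61 for Col5a1 and Col5a2 over 132 cells. In IR day 1 the same pairs gave 0.76, 0.70 and 0.51 over 54 cells, and in IR day 3 0.85, 0.72 and 0.44 over 56 cells. They gave 0.65, 0.64 and 0.54 over 23 cells of sham day 1. Over 13 cells of sham day 14 they gave 0.24, 0.69 and 0.22, and Col1a1 and Col5a1 gave -0.01. These cells share plates and library depth, and the values are descriptive. Thinned to 1000 UMIs per cell, Col5a1 would have been seen in 41.8% of the fibroblast-like cells of sham day 1 and in 37.3%, 74.2% and 65.4% of those of IR day 1, IR day 3 and MI, against 78.3%, 85.2%, 92.9% and 100% at full depth in the same order.

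A well cannot show more than 4096 molecules of a gene, because the UMI has 6 bases and the deposited counts were not corrected for shared UMIs. The highest wells, all in MI, reached 2839 UMIs of Col1a1, 3082 of Col1a2 and 2992 of Col3a1, which correspond to 4839, 5718 and 5370 molecules after correction. There were 18 wells of at least 1000 UMIs for Col1a1, 19 for Col1a2 and 23 for Col3a1, all fibroblast-like. Correction raised the MI pools to 9616 CPM of Col1a1, 11618 CPM of Col1a2 and 11426 CPM of Col3a1, from 8506, 10191 and 10254 CPM, and changed no call.

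Levels in all wells of a plate combine the number of fibroblasts with the RNA of each one. Fewer fibroblasts and less collagen mRNA per fibroblast cannot be told apart in them, and the share of fibroblast-like cells is given beside them. Col1a1 was 70.9 to 242 CPM (median 129) on the 4 sham day 1 plates, 0 to 602 CPM (median 25.6) on 7 sham day 14 plates and 106 to 2473 CPM (median 266) on 9 IR day 1 plates. It was 408 to 6470 CPM (median 2187) on 6 IR day 3 plates, 254, 106 and 1173 CPM on the IR day 14 plates, and 2789 to 4356 CPM (median 3700) on the 5 MI plates. The IR day 3 plates overlapped IR day 1, whereas the MI plates lay above all sham and IR day 1 plates. Fibroblast-like cells were 5.32%, 3.59%, 10.8%, 9.21%, 3.57% and 18.3% of wells in sham day 1, sham day 14, IR day 1, IR day 3, IR day 14 and MI day 3.

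In these sums all 5 chains passed against sham at day 3. The folds after reperfusion were 16.8 for Col1a1 (log2 difference 4.07, SE 0.71), 9.84 for Col1a2 (3.30, SE 0.69), 10.7 for Col3a1 (3.42, SE 0.77), 5.65 for Col5a1 (2.50, SE 0.57) and 7.81 for Col5a2 (2.97, SE 0.54), with adjusted p from 3.69e-05 to 0.0011 and 18.3% of 9309 genes higher. After permanent ligation the folds were 19.4, 10.4, 9.69, 9.26 and 13.4 in the same order, with adjusted p from 4.77e-07 to 0.000596 and 32.8% of genes higher. Both comparisons share the sham plates. Between MI and IR day 3 the differences were -0.14 to 0.78 (SE 0.57 to 0.88), 0 chains passed in edgeR or DESeq2 and 0 had an unadjusted p under 0.05, with 7.67% of genes higher.

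In all wells, both type V chains passed at day 1 of reperfusion. Against sham day 1, Col5a2 rose 6.1-fold (log2 difference 2.61, SE 0.69, adjusted p = 0.00276) and Col5a1 3.69-fold (1.88, SE 0.71, adjusted p = 0.0338), beside 19.6% of genes that were higher. DESeq2 also called Col1a1 (1.97, adjusted p = 0.0341). In edgeR Col1a1 (2.00, adjusted p = 0.0682), Col3a1 (1.76, 0.154) and Col1a2 (1.10, 0.316) did not pass, and whether the type V and type I changes differ was not tested in these sums. The Col5a1 call was lost at similar differences without sham day 1 replicate 1 (1.68, adjusted p = 0.106), 2 (1.84, 0.0754) or 4 (1.82, 0.0801), and at a smaller one without IR day 1 replicate 2 (1.24, 0.115), while Col5a2 kept its call. From day 1 to day 3 of reperfusion Col1a1 (4.72-fold, log2 difference 2.24, adjusted p = 0.0112) and Col1a2 (5.2-fold, 2.38, adjusted p = 0.00822) rose, with 14.9% of genes higher. Col3a1 (1.84, adjusted p = 0.064), Col5a1 (0.57, 0.46) and Col5a2 (0.43, 0.567) did not pass, and Col3a1 passed with DESeq2 (1.89, adjusted p = 0.0417), with RLE scaling (1.89, 0.0477), with wells of at least 2000 UMIs (2.09, 0.0304) and in edgeR without IR day 1 replicate 2 (0.0107) or IR day 3 replicate 1 (0.0435).

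At day 14 of reperfusion no chain passed in all wells. Against sham day 14 the log2 differences were 1.08 to 1.61 (SE 0.74 to 0.97), with 0 chains called by edgeR or DESeq2, 0 at an unadjusted p under 0.05 and 0.0215% of genes higher. Against IR day 3 they were -2.29 (SE 1.02) for Col1a1, -2.04 (SE 1.02) for Col1a2, -1.95 (SE 1.14) for Col3a1, -1.27 (SE 0.78) for Col5a1 and -1.62 (SE 0.73) for Col5a2. Of these 0 passed in edgeR, 2 had an unadjusted p under 0.05 and DESeq2 called 1, with 13.8% of genes lower and 11.9% higher. Without IR day 14 replicate 3, Col1a1 (-3.68, adjusted p = 0.041), Col5a1 (-2.75, 0.0398) and Col5a2 (-2.52, 0.0433) were lower.

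Genes that modify, bind or remove fibrillar collagen were followed in the fibroblast-like cells, as 7 lists of 59 genes, of which 44 could be tested. Against IR day 1, IR day 3 had 19 of the 44 higher, beside 11.5% of all genes, and 1 lower, beside 10.5%. Among 11 genes whose products bind fibrils, 9 were higher and 1 lower, led by Fn1, fibronectin (21.2-fold, adjusted p = 6.13e-06), Thbs2, thrombospondin (12.9-fold, 1.31e-05) and Aspn, asporin (30.1-fold, 1.64e-05). Of 5 breakdown genes 4 were higher, among them Mmp2 (4.14-fold, adjusted p = 0.00279) and the membrane protease Mmp14 (2.36-fold, 0.0277). Of 14 helix enzymes and chaperones 3 were higher, P4ha3, a prolyl hydroxylase subunit (16.3-fold, 4.06e-05), Serpinh1, the collagen chaperone (2.42-fold, 0.0153), and Leprel4 (1.83-fold, 0.0369). The IR day 1 plates held only 7 UMIs of P4ha3, 25 of Aspn and 20 of Thbs2, with a plate at 0 for each. The folds of these genes therefore rest on few counts. Of 4 genes of propeptide removal 2 were higher, Adamts2 (3.32-fold, 0.000413) and Pcolce (2.36-fold, 0.0188), and of 4 crosslinking genes 1, Loxl3 (3-fold, 0.0142). None of 4 receptors or 2 other fibrillar chains passed.

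Against sham, MI day 3 had 15 of the 44 higher, beside 11.8% of all genes, and 5 lower, beside 6.64%. IR day 3 had 6 higher, beside 1.21% of all genes, and none lower. Of the 14 helix enzymes and chaperones 10 were higher in MI, including P4hb (3.89-fold, adjusted p = 0.00119) and Fkbp10 (3.78-fold, 0.00654). In IR day 3 the calls were P4hb (4.35-fold, 0.0089) and P4ha3, and in the direct comparison none of the 14 was higher in MI. Lox, the main crosslinking enzyme, had 3 UMIs in sham and was higher in both, with pooled ratios of 22.6 in MI (95% counting interval 7.71 to 109, adjusted p = 3.53e-05) and 17.3 in IR day 3 (5.8 to 84.9, adjusted p = 0.0024). Tnc, tenascin-C, had no UMI in the sham plates and was at least 46.8-fold higher in MI and 34.3-fold higher in IR day 3, against a limit of 3 counts over the group. P4ha3, also without a UMI in sham, was at least 4.27-fold and 10.1-fold higher. The small proteoglycan Dcn, decorin, fell in MI (to 0.138 of sham, adjusted p = 4.55e-06), as did Lum, lumican (0.24, 0.000968), and Mmp2 (0.106, 4.32e-05). Postn, periostin, rose in IR day 3 (34.7-fold, adjusted p = 0.00546), together with Fn1 (8.82-fold, 0.0125). The fold of Postn rests on 9 UMIs in sham day 1, with a plate at 0. The sham day 14 plate read 470 CPM of Postn, against a mean of 5193 CPM in IR day 3.

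Between MI and IR day 3, none of the 44 were higher in MI and 9 were lower, beside 3.2% and 5.27% of all genes, 7 of them among the 11 fibril-binding genes. These included Aspn (0.0868 of the IR day 3 level, adjusted p = 9.29e-05), Postn (0.134, 0.00148) and Ogn, osteoglycin (0.171, 0.00179), beside Mmp2 (0.163, 0.000503) and P4ha3 (0.402, 0.0154). In all wells, where MI had the larger share of fibroblast-like cells, 12 of 43 were higher in MI and 1 lower, beside 7.67% and 9.71% of all genes. Lox (3.21-fold, adjusted p = 0.00598), Fkbp10 (2.72-fold, 0.00627) and Mmp14 (2.91-fold, 0.00485) were among those higher, and Aspn (0.204, 0.0118) was the one lower. At day 1 of reperfusion against sham day 1, 4 of the 44 were higher and 7 lower, beside 12% and 8.14% of all genes. Lox (2 UMIs in sham day 1) rose, with a pooled ratio of 14.2 (95% counting interval 3.86 to 119, adjusted p = 0.000961), as did Plod3, a lysyl hydroxylase, 2.83-fold (0.0265), and Tnc was at least 64.7-fold higher, while Thbs2 (0.101, 0.000313), Dcn (0.241, 0.000355), Mmp2 (0.199, 0.00196), Pcolce2 (0.293, 0.0115) and Pcolce (0.364, 0.0134) fell. At day 14 of reperfusion P4hb alone fell against IR day 3 (0.22, adjusted p = 0.0218), beside 0.624% of all genes that were lower and 0.674% that were higher. The comparison with the single sham day 14 plate is not read for these lists.

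Markers of other cells were present in the fibroblast-like cells and moved with the groups. All 9 cardiomyocyte markers had UMIs in every group, and summed to 3641 CPM in sham day 1 (1517 to 8552 over plates) and 3511 CPM in sham day 14. The same sum was 296 CPM at day 1 of reperfusion (78.4 to 444), 4847 at day 3 (1160 to 5629), 4071 at day 14 (1488 to 12578) and 129 CPM after MI (25.7 to 215). The 9 macrophage markers of the tables summed to 22.3, 1297, 64.5, 1292, 55.3 and 237 CPM in the same order, and C1qa and Lyz2 were at 0 in sham day 1. The 10 fibroblast markers summed to 53043, 32968, 12121, 18692, 41706 and 5582 CPM, with none at 0. The part of these differences in the collagen results was not tested.

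The genes whose levels were most like the summed level of the 5 chains were Mfap5, Thbs2, Tmem45a, Srpx2, Pcolce, Dcbld2, Sfrp1 and Bgn, with Pearson's r of 0.92, 0.90, 0.89, 0.89, 0.89, 0.89, 0.89 and 0.88 over 27 pools of class and group. The r is on log2 of CPM plus 10, and much of it comes from the contrast between fibroblast-like cells and other classes. Over the 6 fibroblast-like pools alone it was 0.21 for Mfap5, 0.29 for Pcolce, 0.55 for Thbs2, 0.72 for Bgn, 0.84 for Srpx2 and 0.89 for Dcbld2. Over all 27 pools, which include that contrast, each chain against the other 4 gave 0.99 for Col1a1, 0.99 for Col1a2, 0.97 for Col3a1, 0.95 for Col5a1 and 0.90 for Col5a2. These values were not computed over the fibroblast-like pools alone.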

How the data were processed

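Per the labels, the authors mapped SORT-seq reads to GRCm38/mm10 with BWA-ALN (version not given in the sources used here) and deposited UMI counts per gene and well. The counts were not corrected for molecules that share a 6-base UMI. Mitochondrial genes and spike-ins were left out of all totals. Wells of at least 1000 UMIs were clustered without collagen genes (scanpy 1.11.5, leidenalg 0.10.2) and named from marker lists, and doublets were not called. UMIs were summed per plate over fibroblast-like cells (at least 5) or over all wells (at least 10), and tested with edgeR 4.0.16 (quasi-likelihood, TMM, filterByExpr, Benjamini-Hochberg over all genes, threshold 0.05). Chain ratios were tested by exact permutation over plates. Alternatives included DESeq2 1.42.0. In simulated data for MI against IR day 3, 77% of 200 genes changed 4-fold were recovered in fibroblast-like cells (5934 genes, 6 false calls) and 90% in all wells (9309 genes, 6 false calls). Apart from these changes, every group was simulated with the same mean of each gene. The chains differed by less than 4-fold in that comparison, so the recovered shares do not give the power for them. Named genes were the 5 members, up to 3 members of each pathway list with the smallest adjusted p of those past the threshold, and the 8 genes most like the summed chains. The members and lists were chosen with earlier results of these data known. The runs on single clusters, and ratios without copied wells, were added after seeing the data.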

Additional observations from a re-analysis of the deposited data

Results flagged for a closer look

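In groups of 4 to 10 plates, a plate was singled out where its gap to the nearest other plate was a large part of the range (Dixon's 95% limit), which chance does in about 1 in 20 groups. Of 52 groups of plates tested for the 5 chains and their ratios, 12 held such a plate. In all wells, sham day 14 replicate 8 stood above the other 6 plates for Col3a1 (1899 CPM), Col5a1 (167 CPM) and Col5a2 (123 CPM). IR day 1 replicate 2 stood above the other 8 plates in all wells for Col1a1 (2473 CPM), Col3a1 (5458 CPM), Col5a1 (835 CPM) and Col5a2 (839 CPM). In fibroblast-like cells, IR day 1 replicate 3 stood above the other 4 plates for Col1a1 (4333 CPM), Col1a2 (5759 CPM) and Col5a1 (982 CPM), and its removal gives the 3 lower calls of the day 1 comparison with sham. IR day 3 replicate 3 stood below the other 3 plates for Col1a1 in fibroblast-like cells (11824 CPM), and the log2 ratio of type V to type I on IR day 3 replicate 4 (-3.35) stood above the others.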

How the results depend on the processing

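Over all alternatives and left-out plates, 1444 of 1475 log2 differences of the 5 chains kept their direction, 22 lost a call and 43 gained one, and the cause of these changes was not tested. In fibroblast-like cells, the number of chains that passed for IR day 3 against sham (2) became 5 with DESeq2, with no filter on low counts and against sham day 1 alone, and 0 against sham day 14 alone and in the Pi16-led cluster alone. For MI against sham it went from 2 to 5 with no filter and to 0 against sham day 14 alone. For MI against IR day 3 it went from 0 to 1 with RLE scaling or DESeq2, to 2 with no filter and to 3 with plates of at least 10 cells. For IR day 3 against IR day 1 it went from 5 to 2 with plates of at least 10 cells, where IR day 1 was replicate 3 alone, and to 0 in the Pi16-led cluster alone, where each group was 1 plate, and for IR day 14 against IR day 3 from 0 to 3 with no filter. In all wells, IR day 14 against IR day 3 went from 0 chains to 1 with DESeq2. With plates of at least 3 cells or wells of at least 500 UMIs, 4 ratio tests passed. Over fewer tests, 2 passed with at least 10 cells or in Timp1-led cells alone.

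Some differences that had passed no test changed sign. For IR day 1 against sham day 1 in fibroblast-like cells, the log2 difference of Col1a1 turned to 0.05 with no filter and 0.17 with wells of at least 500 UMIs, and that of Col5a1 to -0.13 with RLE scaling or DESeq2, -0.17 with wells of at least 500 UMIs and -1.95 in the Pi16-led cluster alone. For MI against IR day 3 in all wells, Col1a1 turned to -0.08 and Col1a2 to -0.27 with wells of at least 2000 UMIs, and Col3a1 to 0.03 with no filter. The log2 ratio of Col5a2 to Col5a1 turned to -0.11 with plates of at least 10 cells and -0.18 with wells of at least 2000 UMIs for MI against IR day 3, and to -0.00 with a pseudocount of 1, -0.13 with wells of at least 500 UMIs and -0.25 with wells of at least 2000 UMIs for IR day 14 against IR day 3.

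With 1 plate left out at a time, the chains that passed in fibroblast-like cells numbered 0 to 3 for IR day 1 against sham day 1 and 1 to 4 for IR day 3 against sham, where leaving out sham day 14 replicate 8 amounts to the fit against sham day 1 alone (5), and in all wells 1 to 2 for IR day 1 against sham day 1 and 0 to 3 for IR day 14 against IR day 3. In fibroblast-like cells, IR day 1 against sham day 1 ran from -1.16 to 0.32 for Col1a1, -1.37 to 0.49 for Col3a1 and -0.49 to 0.82 for Col5a1, and IR day 14 against sham day 14 from -0.50 to 0.65 for Col3a1 and -0.54 to 0.80 for Col5a1. In all wells, IR day 14 against sham day 14 ran from -0.01 to 2.02 for Col1a2, -0.26 to 2.50 for Col3a1 and -0.21 to 2.86 for Col5a1, and MI against IR day 3 from -0.04 to 0.52 for Col1a1, -0.16 to 0.58 for Col1a2 and -0.38 to 0.41 for Col3a1. Among the log2 ratios, Col3a1 to Col1a1 ran from -0.42 to 0.29 for IR day 1 against sham day 1, type V to type I from -0.22 to 0.04 for MI against sham, and Col5a2 to Col5a1 from -0.11 to 0.20 for MI and from -0.18 to 0.13 for IR day 14, both against IR day 3. For IR day 3 against IR day 1 in all wells, Col5a1 ran from 0.32 to 1.22 and Col5a2 from 0.03 to 0.92 (lowest without IR day 3 replicate 3, highest without IR day 1 replicate 2). Without sham day 14 replicate 8, IR day 14 against sham day 14 in fibroblast-like cells could not be fitted.

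Of pairs sharing a replicate number, 0 of 20 deviated alike (r over 0.1) in fibroblast-like cells and 9 of 61 in all wells (to 0.34). Whether the number pairs plates was not tested. With the replicate number as a block, Col5a2 lost its call for IR day 3 against IR day 1 in fibroblast-like cells (1.60, adjusted p = 0.0505). In all wells under the block Col3a1 gained one for that comparison (2.20, adjusted p = 0.0457) and Col1a1 for IR day 14 against IR day 3 (-3.10, adjusted p = 0.0405), the 1 chain called there. The block also turned Col1a1 to 0.23 for IR day 1 against sham day 1 in fibroblast-like cells, and Col1a1 to -0.07 and Col1a2 to -0.03 for MI against IR day 3 in all wells.

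Counts over all genes in fibroblast-like cells moved by over 1.5 times as well. They went from 1195 to 278 with the block for IR day 1 against sham day 1, and from 103 to 190 with DESeq2, 275 with no filter, 188 and 4 against either sham group alone and 65 with wells of at least 500 UMIs for IR day 3 against sham. For MI they went from 1097 to 1758 with no filter and 250 against sham day 14 alone, and, against IR day 3, from 503 to 755 with DESeq2, 1080 with no filter, 126 with the block and 1319 with plates of at least 10 cells. IR day 3 against IR day 1 went from 1308 to 333 with the block and 189 with plates of at least 10 cells, and IR day 14 against IR day 3 from 77 to 264 with DESeq2, 242 with no filter and 0 with the block. With plates of at least 3 cells, IR day 3 against sham had 66 and IR day 14 against IR day 3 had 50, and with wells of at least 2000 UMIs the latter had 31. In the Pi16-led cluster alone the counts were 1 for IR day 1 against sham day 1, 9 for IR day 3 against sham, 8 for IR day 3 against IR day 1 and 2 for IR day 14 against IR day 3, and in the Timp1-led cluster alone MI against IR day 3 had 142. IR day 14 against sham day 14 had 2 genes, and 1 to 31 under the alternatives, and in all wells 2 genes, and 0 to 6. With 1 plate left out the counts in fibroblast-like cells were 770 to 1236 for IR day 1 against sham day 1 (lowest without sham day 1 replicate 3), 52 to 168 for IR day 3 against sham (without IR day 3 replicates 7 and 3), 233 to 685 for MI against IR day 3 and 762 to 1523 for IR day 3 against IR day 1 (both lowest without IR day 3 replicate 4), 1 to 156 for IR day 14 against IR day 3 (without IR day 14 replicate 3 and IR day 3 replicate 3) and 0 to 1 for IR day 14 against sham day 14. The 13 fibroblast-like cells of sham day 14 and the 17 of IR day 14 limit the precision of those groups.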
